A study of Mus musculus with 8 samples.

Results

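The Input transcriptome of motor neurons that had been derived from mouse embryonic stem cells was described from the 2 Input libraries of a series of 8, chosen by their labels and not by any measured value. The cells were HBG3 embryonic stem cells, 1 line that carries green fluorescent protein under the promoter of HB9, the product of Mnx1. They were grown in medium with LIF and inhibitors of FGF receptor and Gsk-3, on dishes coated with gelatin or with mouse embryonic fibroblasts. They were then turned into spinal motor neurons, dissociated with papain and plated on polyornithine and laminin in N2B27 medium with BDNF, CNTF, GDNF and a kinase inhibitor, and differentiation went on for 3 more days. Input is the RNA of these cells with no capture by probes. The libraries are from 2 independent experiments, called replicate 1 and replicate 2, and were prepared from total RNA after depletion of ribosomal RNA, in a strand-marking protocol. The labels name no sorting of reporter-positive cells, and each library is read here as the RNA of the whole culture. The pull-down libraries for Lhx1os, the long noncoding RNA under study, and their LacZ control were not used.

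In the spinal cord, motor neurons arise from ventral progenitors that express Olig2, under sonic hedgehog from the floor plate and retinoic acid from the adjoining mesoderm. As they leave the cell cycle they switch on the homeodomain factors Mnx1, Isl1, Isl2, Lhx3 and Lhx4, and then the genes for making and storing acetylcholine. The same Olig2 progenitors later give rise to oligodendrocytes, the myelinating glia.

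Replicate 1 had 24628435 counts and replicate 2 had 20515501 over 55471 genes. Levels below are FPKM, counts scaled to the exonic length of the gene and to the library total, which allow genes of different length to be compared within a library. Counts are reads without molecular identifiers, so every interval and every limit set by a count of 0 covers counting error only. At an FPKM of at least 1 in both libraries, called detected here, there were 12045 genes, and 11329 of 21974 protein-coding genes, or 51.6%. That 51.6% is the background for each count of detected members of a protein-coding gene list below. The median level of the detected protein-coding genes was 9.46 FPKM. With 1 library from each experiment, a difference between the libraries has no replicate check, and the library and the experiment cannot be told apart. Gene lists were chosen with earlier results of these data known. A share of list members beside that of all genes is therefore only a description.

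All 6 genes taken as markers of motor neurons were detected in both libraries. Tubb3, the neuronal beta-tubulin, was at 254 FPKM in replicate 1 and 406 in replicate 2. Map1b, a microtubule-associated protein of growing axons, was at 239 and 318. It ranked 36 among all protein-coding genes by mean level, and Tubb3 ranked 24. Mnx1 (chromosome 5, 29473034 to 29478470 of GRCm38, minus strand), the motor neuron factor behind the reporter, was at 21.2 and 30.7 FPKM, a mean of 25.9 ± 6.72 (SD, n = 2). Isl1, a LIM-homeodomain factor of motor neurons and some other neurons, was at 10.6 and 22.8. Chat, which makes acetylcholine, was at 2.69 and 7.77, and Lhx3, which acts with Isl1 in newborn motor neurons, was at 2.29 and 4.31. The 2 general neuronal markers were thus far above the 4 motor neuron genes, and Chat and Lhx3 lay below the median of detected coding genes. All 6 were higher in replicate 2, and the direction is the same with either of the other scalings tried. In bulk RNA, fewer cells of a type and less RNA per cell cannot be told apart.

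The start of Mnx1 is shown because its promoter drives the reporter that marks these cells. The RefSeq window at chr5:29478421-29478720 (GRCm38.p6, minus strand, 250 bases before the start of transcription and 50 from it) reads as follows, with the transcribed bases in capitals. It held neither the homeodomain core TAATTA, found in 5.29% of all 32851 windows of this length on either strand, nor the E-box CAGATG, found in 17.2%.
Mnx1: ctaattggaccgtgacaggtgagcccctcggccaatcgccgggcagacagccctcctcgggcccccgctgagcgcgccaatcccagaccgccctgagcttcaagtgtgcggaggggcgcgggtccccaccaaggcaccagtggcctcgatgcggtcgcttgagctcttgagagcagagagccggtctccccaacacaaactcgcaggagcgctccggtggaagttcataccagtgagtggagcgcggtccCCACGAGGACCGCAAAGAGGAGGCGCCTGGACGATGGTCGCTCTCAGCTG

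Of 12 motor neuron transcription factors, 11 were detected. The highest after Mnx1 was Lmo4, a LIM-only cofactor, at 22.9 FPKM in replicate 1 and 27.8 in replicate 2. Lhx4, a close relative of Lhx3, was at 12.4 and 15. Isl2, which follows Isl1 in motor neurons after they leave the cell cycle, was the exception, at 0.444 and 1.53, or 24 and 69 counts. The onecut factors ranged from 1.67 for Onecut3 to 6.86 for Onecut2, and Ebf3, an early B-cell factor family member of new neurons, was at 8.85 and 8.42. Cranial motor neuron factors were low, with Phox2a at 0.0399 and 0.407 FPKM and Tbx20 at 0.0948 and 0.329. None of the 3 cranial factors listed was detected.

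All 6 cholinergic genes were detected. Slc18a3, the vesicular acetylcholine transporter, was highest at 20.1 and 35.4 FPKM, above Chat in both libraries. Slc18a3 lies wholly inside Chat on the same strand (chromosome 14, 32462438 to 32464850 within 32408203 to 32465989, GRCm38), and the rule for reads shared by overlapping genes is not stated in the labels. Slc10a4, a transporter-like protein of cholinergic vesicles, was at 12.7 and 22.5, and Slc5a7, the choline uptake transporter of cholinergic endings, at 2.77 and 8.9. Slc44a1, a choline transporter that most cells use and that is abundant in oligodendrocytes, moved the other way, from 11.3 to 4.06.

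The genes of motor columns and pools were a mixture. Foxp1, which marks limb-innervating motor neurons, was at 7.4 and 12.6 FPKM. Aldh1a2, the retinoic acid-making enzyme that limb-level motor neurons also express, was at 4.2 and 3.32. Etv4, a pool factor induced by GDNF, was at 4.21 and 9.47, and Etv1, another pool factor, at 17.2 and 5.94. Pou3f1, a factor of phrenic and some limb motor neurons, was at 4 and 8.33, while Mecom, of the medial column, was at 1.24 and 0.518 and Nos1, of preganglionic neurons, at 0.335 and 0.507. Of the 12 genes, 9 were detected, and their summed level was 89.3 FPKM in replicate 1 and 89.4 in replicate 2. Individual pool genes thus moved in opposite directions under an equal sum.

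Receptors for the trophic factors in the medium were detected for each factor. Cntfr, the CNTF receptor, was at 27.1 and 21 FPKM, and its signalling partners Lifr and Il6st were at 15.9 and 18.4 and at 18.6 and 13.4. For GDNF, Gfra1 was at 12.2 and 11.6 and Ret at 9.46 and 14.1. For BDNF, the receptor kinase Ntrk2 was at 9.22 and 3.03 and the shared neurotrophin receptor Ngfr at 27.7 and 35.1. Gfra3, of another GDNF family ligand, had no count in replicate 1 and 0.0732 FPKM in replicate 2.

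Hox genes pattern the spinal cord from head to tail, with low paralogue groups at hindbrain and cervical levels and higher groups further down. Here 19 of 39 Hox genes were detected, where 51.6% of all protein-coding genes were. Levels were low beyond group 8, as the plot of Hox genes by cluster shows. The highest were Hoxb8 at 58.2 FPKM in replicate 1 and 58.1 in replicate 2, Hoxb5 at 41.2 and 68.4, Hoxa5 at 42.3 and 48.4, and Hoxb3 at 39.8 and 44.9. Hoxc4, of cervical cord, was at 30.4 and 41.1 and Hoxc5 at 14.4 and 20. The sum of the paralogues was 2.97 and 5.85 FPKM in group 1 and 97.8 and 137 in group 5. It was 59.3 and 59.3 in group 8, 4.92 and 4.18 in group 9, and 0 in both libraries for groups 10, 11 and 12.

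**Figure D1:**
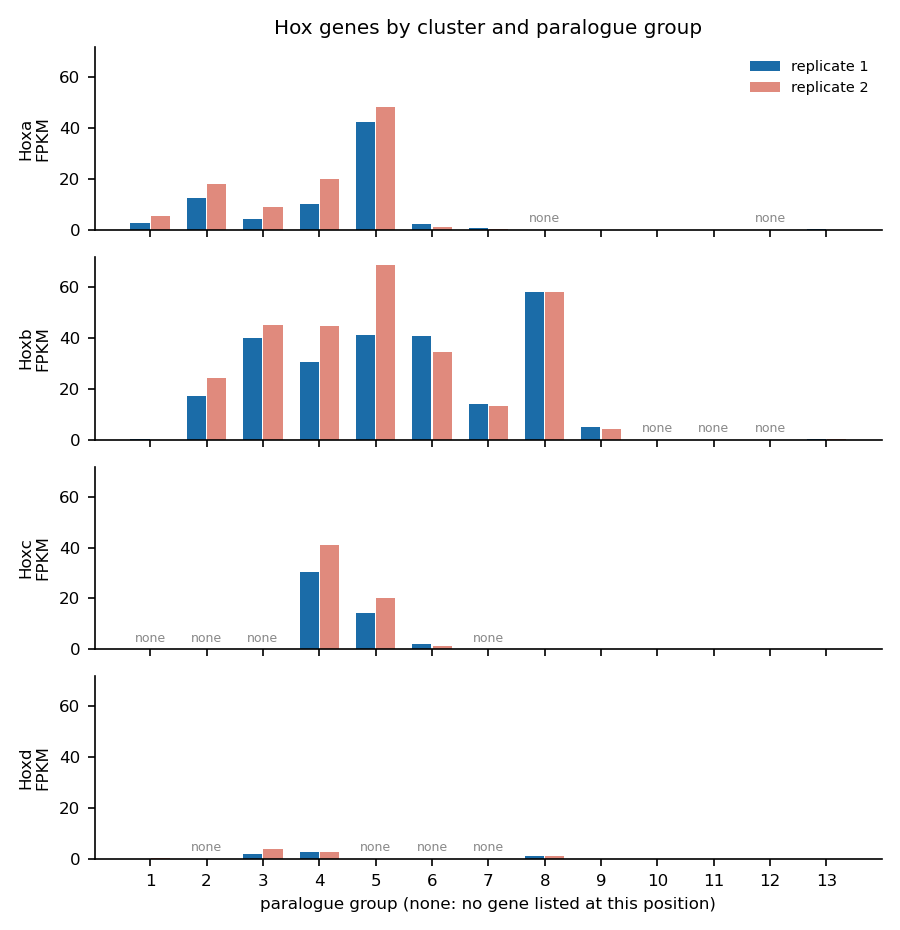
Level of each Hox gene in FPKM (bars, 1 per Input library) against paralogue group, with 1 panel for each of the clusters Hoxa to Hoxd. Group 5 has the highest sum, Hoxb8 stands alone at 58.2 and 58.1 FPKM in group 8, and groups 10 to 12 have no counts.

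Group 8 rested on a single cluster. Hoxb8 gave nearly all of it, whereas Hoxc8, which with the brachial Hox genes specifies limb motor pools, had 4 and 5 counts and Hoxd8 was at 1.07 and 1.08 FPKM. Hoxb9 was at 4.83 and 4.05. Hoxc9, the factor of thoracic motor neurons, had 0 counts in replicate 1, which allows up to 0.0501 FPKM, and 3 in replicate 2. Hoxa9 had 0 in both, which allows up to 0.0218 and 0.0262 FPKM. By cluster, Hoxb held 247 and 292 FPKM, Hoxa 75.3 and 102, Hoxc 46.9 and 62.5, and Hoxd 5.96 and 7.91. The clusters kept this order in both libraries.

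Factors of other neuron classes were below Mnx1, Lmo4 and Isl1 in both libraries, but several were above Lhx3 and Isl2. Of 14 ventral interneuron factors 7 were detected, a share near the 51.6% of all protein-coding genes. The highest by mean level were Gata3, Gata2 and Tal1, the trio of V2b neurons. Gata3 was at 7.86 FPKM in replicate 1 and 10.6 in replicate 2, Gata2 at 4.9 and 6.67 and Tal1 at 2.77 and 3.5. Gata2 and Gata3 are also made in serotonin neurons. En1, of V1 neurons, was at 1.38 and 2.94. Evx1, of V0 neurons, was at 0.0847 and 0.203, and Sim1, of V3 neurons, was at 0.777 and 0.396.

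Of 16 dorsal interneuron factors 4 were detected, where 51.6% of all protein-coding genes were. The 4 were Lmx1b at 6.34 and 11.1 FPKM, Lhx1 at 7.25 and 7.6, Bhlhe22 at 4.65 and 9.1, and Lhx5 at 1.62 and 2.05. Lhx1 and Lhx5 are also made in ventral interneurons, Lhx1 in limb motor neurons, and Lmx1b in floor plate and serotonin neurons. Factors found more strictly in dorsal cells were low. Lbx1 was at 0.131 and 0.137, Tlx3 at 0.185 and 0.7, and Ptf1a at 0 in both. The target of the study, Lhx1os, whose start lies 124 bases from that of Lhx1, was at 3.2 and 4.26 FPKM.

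Markers of other transmitters were below the median of detected coding genes. Slc17a6, the main vesicular glutamate transporter of spinal neurons, was at 1.5 FPKM in replicate 1 and 0.578 in replicate 2, and Slc17a8 at 3.53 and 3.39. Slc32a1, the vesicular transporter of GABA and glycine, was at 2.89 and 2.3, Gad2 at 2.09 and 2.49, and Gad1 at 0.664 and 0.778. Each was below Slc18a3 in both libraries, but in replicate 1 Slc17a8 and Slc32a1 were above Chat at 2.69 and Slc5a7 at 2.77. Fev, a serotonin neuron factor, was at 4.07 and 6.36, while Tph2, which makes serotonin, was at 0.338 and 0.847. Th, which marks catecholamine neurons, was at 0.292 and 0.948. Of 7 sensory neuron genes only P2rx3 was detected, at 1.89 and 2.43, and the nociceptor channels Scn10a and Trpv1 were at or near 0.

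General neuronal genes were abundant. All 23 genes of the neuronal cytoskeleton and growth list were detected, and 22 had a mean of at least 10 FPKM. Dpysl3, of growth cones, was at 258 FPKM in replicate 1 and 306 in replicate 2, and Gap43, of axon growth, at 160 and 388. Tubulins held 2174 and 2680 FPKM together, led by Tuba1a at 482 and 626. Among RNA-binding proteins of neurons, Elavl3 was at 35.7 and 51.9, and Rbfox3, the NeuN antigen of more mature neurons, was lower at 10.2 and 12.4. Nefh, the heavy neurofilament chain that comes late in development, was at 2.22 and 6.16, far below Nefl at 115 and 303. Nefl lies inside the span of Nefm on the opposite strand, and whether counting used strand is not stated in the labels.

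Synaptic genes were all present at moderate levels. Each of 22 presynaptic genes was detected, with Vamp2, of vesicle fusion, at 50 FPKM in replicate 1 and 73.8 in replicate 2. Snap25, its partner on the plasma membrane, was at 6.87 and 12.8. Each of 12 postsynaptic genes was detected, led by Nlgn2, of inhibitory synapses, at 80.8 and 49.9 and by Agrn, which clusters acetylcholine receptors at the muscle endplate, at 53 and 36.6. Chrna4, a neuronal nicotinic receptor subunit, led the transmitter receptors at 29.3 and 17.3, followed by Glra1, the adult glycine receptor subunit, at 21.8 and 16.9. Of 24 voltage-gated channel genes 18 were detected, led by Cacna1g, a T-type calcium channel, at 23.9 and 15.8.

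Genes linked to motor neuron disease were measured with few exceptions, 23 of 24 being detected. Hnrnpa1, an RNA-binding protein, was highest at 189 FPKM in replicate 1 and 238 in replicate 2, followed by Vcp, a protein-unfolding ATPase, at 142 and 126. Tardbp, which encodes TDP-43, was at 36.8 and 39.2, Sod1 at 22.6 and 35.3, and C9orf72 at 9.16 and 9.41. Stmn2, a microtubule regulator of axons, was at 42.1 and 97.6 and was the only member over 2-fold apart. Tuba4a was the undetected gene, at 0.165 and 0.303.

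Progenitor genes were abundant too. Of 13 general neural progenitor genes 12 were detected. Fabp7, a fatty acid-binding protein of radial glia, was at 447 FPKM in replicate 1 and 433 in replicate 2, above Tubb3 in both. The intermediate filament genes of neural progenitors followed, Vim at 280 and 280 and Nes at 135 and 128. Sox2, the neural stem cell factor, was at 149 and 95.1, and Sox9, of late progenitors and glia, at 118 and 56.1. Pax6 was the low member, at 1.08 and 0.588. By these markers the cultures held progenitor as well as neuronal RNA.

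All 24 cell cycle genes were detected and 22 had a mean of at least 10 FPKM. Top2a, of DNA topology in dividing cells, was at 84.5 and 66.7, Rrm2, of DNA precursor supply, at 67.7 and 65.3, and Mki67 at 29.8 and 42.5. Replication-dependent histone genes, whose mRNAs lack a poly(A) tail and are kept by this kind of library, took 0.323% of the counts in replicate 1 and 0.381% in replicate 2. The summed level of the cell cycle list was 691 and 667, nearly equal in the libraries.

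Progenitor domains could be read from their factors. Olig1 was at 189 FPKM in replicate 1 and 44.2 in replicate 2, and Olig2 at 144 and 53.9, the pair of the motor neuron and oligodendrocyte domain. Nkx6-1, of the 3 most ventral neuronal domains and the floor plate, was at 51.2 and 47.3, and Nkx2-2, of the p3 domain next to the floor plate and of oligodendrocyte precursors, at 32.2 and 14.1. Irx3, of domains dorsal to the motor neuron domain, was at 6.62 and 6.41. Dorsal domain factors were absent or near it, with Pax7 at 0.00693 and 0.00832, Pax3 at 0 in both libraries and Gsx2 at 0.0244 and 0. The pattern was ventral in both libraries. Neurog2, a proneural factor of motor neuron progenitors, was at 7.62 and 6.92.

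Floor plate genes were high. Ntn1, the netrin that guides commissural axons, was at 367 FPKM in replicate 1 and 217 in replicate 2 and was among the 10 genes with most counts in replicate 1. Shh was at 33 and 54, Foxa2 at 28.8 and 52.5 and Foxa1 at 5.31 and 17.2. Ntn1, which ventral progenitors also make, was higher in replicate 1, and Shh, Foxa2 and Foxa1 were higher in replicate 2. The roof plate genes were low, with Lmx1a at 0.634 and 0.431, Gdf7 at 0.143 and 0 and Wnt1 at 0.0341 and 0.

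**Figure D2:**
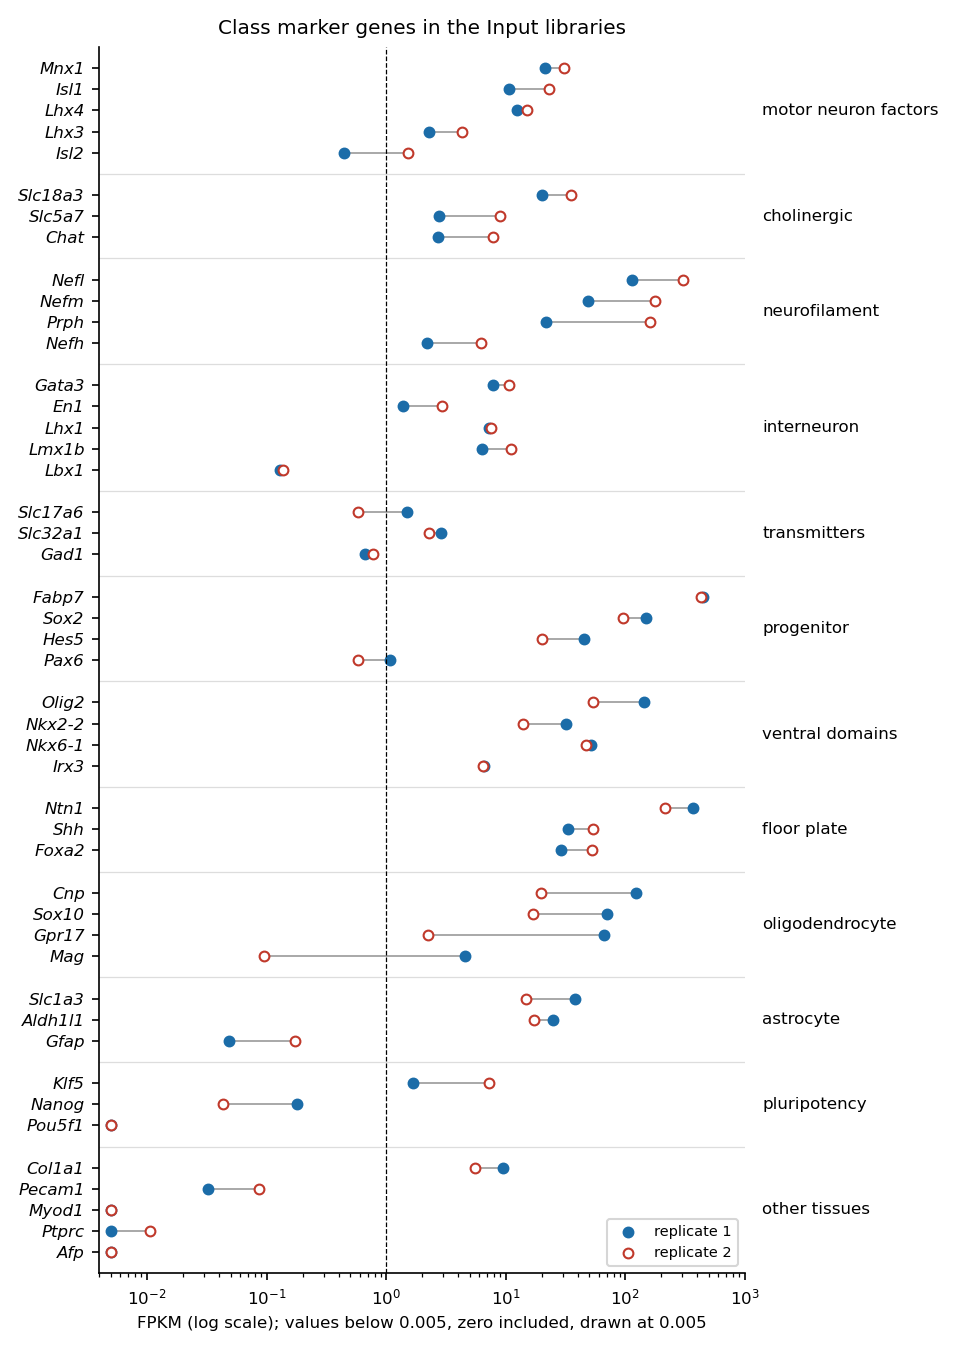
Level of marker genes in FPKM on a log scale, with a filled point for replicate 1 and an open point for replicate 2 and groups of genes named at the right. The dashed line is the detection level of 1 FPKM. Most neuronal, progenitor, floor plate and oligodendrocyte genes lie above it in both libraries. Lbx1 and Gad1 lie below it in both, Isl2 in replicate 1, and Slc17a6, Pax6 and Mag in replicate 2. Gfap, Nanog, Pou5f1, Pecam1, Myod1, Ptprc and Afp also lie below it in both.

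Embryonic stem cell RNA was close to absent. Of 23 pluripotency genes 2 were detected, Klf5 at 1.67 FPKM in replicate 1 and 7.24 in replicate 2, and Lin28b at 1.46 and 2.12. Pou5f1, the defining factor of pluripotent cells, had 0 counts in both libraries, which allows up to 0.0541 and 0.065 FPKM. Nanog was at 0.181 and 0.0435, or 10 and 2 counts, and Zfp42 at 0.0216 and 0.0777. Klf5 is also made in epithelial cells and Lin28b in early neural progenitors, so neither member that passed is particular to stem cells. The summed level of the list was 7.58 FPKM in replicate 1 and 17.8 in replicate 2. Of the 6 members with at least 100 counts, 3 were over 2-fold higher in replicate 2, where 4.06% of all genes were. The number was also 3 with TMM scaling.

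Markers of several other tissues were not detected. None of 12 microglia and blood genes, 9 endothelial genes, 10 muscle genes or 10 endoderm genes reached 1 FPKM in both libraries. The summed level of the microglia and blood list was 0.0775 FPKM in replicate 1 and 0.346 in replicate 2. Ptprc, the pan-leukocyte antigen, had 0 and 4 counts, and Hba-a1, Myod1 and Afp had 0 in both. Kdr, of endothelium, was the nearest to the threshold at 1.03 and 0.534.

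Some mesenchymal genes were present, in contrast. Of 15 fibroblast and mesenchyme genes 10 were detected, where 51.6% of all protein-coding genes were. With 5 FPKM as the detection level it was 4 of the 15. Fn1, a matrix glycoprotein, was at 14 FPKM in replicate 1 and 23.5 in replicate 2. The fibrillar collagen genes Col1a1 and Col3a1 were at 9.49 and 5.53 and at 8.68 and 4.04, and Tagln, of smooth muscle and myofibroblasts, at 7.58 and 12.4. The list had equal sums of 80.9 and 80.4 FPKM, but its members divided. Of the 15, 6 were over 2-fold lower in replicate 2 and 2 over 2-fold higher, against 2.76% and 4.06% of all genes with at least 100 counts summed over the libraries. Stem cells had been kept on gelatin or on feeder fibroblasts, and the part of those cells in these values was not tested. Of 9 epithelial genes only Cdh1 was detected, at 2.31 and 6.43.

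Of 9 astrocyte genes 6 were detected, where 51.6% of all protein-coding genes were. Of the 9, 4 had a mean of at least 10 FPKM, but Gfap and Aqp4 were not detected. Fgfr3 was at 36.5 FPKM in replicate 1 and 23.2 in replicate 2, Slc1a3, a glutamate transporter also made by radial glia, at 38.2 and 14.8, and Aldh1l1 at 25.1 and 17.1. Gfap, the filament of mature astrocytes, was at 0.0481 and 0.173, and Aqp4, their water channel, at 0.0912 and 0.125. S100b, which oligodendrocytes share, was at 7.52 FPKM in replicate 1 and 0.131 in replicate 2. Among neural crest genes, Tfap2a was at 0.0248 and 0.0596, while Sox10, which crest shares with oligodendrocytes, was at 71 and 16.9.

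Oligodendrocyte lineage genes set the libraries furthest apart. Of 10 members 7 were detected and 9 had at least 100 counts summed over the libraries, the minimum used for ratios. All 9 were over 2-fold lower in replicate 2, where 2.76% of the 12970 genes with that many counts were. Their median log2 ratio of replicate 2 over replicate 1 was -3.04, against 0.06 over all 12970 genes. The summed level of all 10 was 363 FPKM in replicate 1 and 49.7 in replicate 2. The list was chosen with earlier results of these data known, so these values are no independent evidence.

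Members of the lineage are given here by stage. Sox10, which specifies the lineage, was at 71 FPKM in replicate 1 and 16.9 in replicate 2, or 4.2-fold lower (95% exact interval 3.93 to 4.49). Pdgfra, the receptor of precursors, was at 14.6 and 1.78, or 8.2-fold lower (7.36 to 9.16), and Cspg4, the NG2 antigen of precursors, at 1.56 and 0.282. Gpr17, of committed precursors that stop dividing, was at 65.8 and 2.26, or 29.1-fold lower (25.6 to 33.2). Myrf, the factor that drives myelin genes, was at 19.1 and 1.02, or 18.7-fold lower (16.1 to 21.9). The fold between the libraries was larger for Gpr17 and Myrf than for Sox10 and Pdgfra. The intervals do not overlap, but they cover counting error only. The fold did not rise steadily with stage, since it was smaller for the myelin genes Cnp and Mbp, given below, than for Pdgfra.

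Among myelin genes, Cnp, an enzyme of myelin, was at 124 and 19.7 FPKM and Mbp, its main cytoplasmic protein, at 41.9 and 6.64. Mag, an adhesion molecule of the innermost myelin layer, was at 4.55 and 0.0958. Mag had 456 counts and 8. Mog, of the outermost layer and the latest stage, had 0 counts in both libraries, which allows up to 0.0715 and 0.0858 FPKM. Every other member named here was above 1 FPKM in replicate 1. Of the progenitor genes that the lineage shares with motor neurons, Olig1 was 4.28-fold lower in replicate 2 (4.08 to 4.5), close to Sox10, and Olig2 2.68-fold lower (2.57 to 2.8).

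Promoters of members of this list are shown because the genes were lower together. RefSeq promoter windows of 300 bases were at hand for 5 of the 10 members. They were searched on both strands for ACAAAG, a core bound by SOX factors. It was in a window of 2 of the 5 members, Cnp and Mag, and in 18.7% of all 32851 windows of this length. Members were scored over all their listed starts and the 18.7% over single windows, so the shares are not alike. The windows are chr11:100574689-100574988 on the plus strand for Cnp and chr7:30914814-30915113 on the minus strand for the first of 3 listed starts of Mag, in GRCm38.p6, with the match in capitals. The match in Mag is on the other strand. The window of Mnx1 held no match.
Cnp: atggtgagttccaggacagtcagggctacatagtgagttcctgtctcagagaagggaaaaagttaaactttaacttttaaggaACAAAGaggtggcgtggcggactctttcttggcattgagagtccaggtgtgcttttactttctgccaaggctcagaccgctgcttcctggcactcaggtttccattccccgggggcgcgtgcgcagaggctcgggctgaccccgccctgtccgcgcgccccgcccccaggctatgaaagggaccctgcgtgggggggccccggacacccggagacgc
Mag: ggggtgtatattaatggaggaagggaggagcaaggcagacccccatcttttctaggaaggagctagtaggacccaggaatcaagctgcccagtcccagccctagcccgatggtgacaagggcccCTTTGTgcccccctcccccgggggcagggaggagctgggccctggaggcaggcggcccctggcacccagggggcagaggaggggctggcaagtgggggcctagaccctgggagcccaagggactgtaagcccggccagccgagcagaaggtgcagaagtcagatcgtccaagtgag
A match is a description of these letters and not of binding.

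Across all genes, Pearson's r of log2(FPKM + 1) between the libraries was 0.956 over 12881 genes at 1 FPKM or more in either library, as a description, since genes are not replicates and share the libraries' depth and composition. Of the 12970 genes with at least 100 counts, 79.7% were within 1.5-fold and 884, or 6.82%, were over 2-fold apart. Of these, 526 (4.06%) were higher and 358 (2.76%) lower in replicate 2. The share of higher genes was 59.5% with FPKM as deposited, 46.4% with TMM scaling and 42.1% with median of ratios scaling, which shift all log2 ratios down by 0.12 and 0.15. With TMM scaling the medians of postsynaptic genes, transmitter receptors and voltage-gated channels turned from 0.07, 0.05 and 0.11 to -0.05, -0.07 and -0.01, so no direction is given for them. The spread of the ratios exceeded counting error at every depth. Among genes with 3000 to 10000 counts the SD of the log2 ratio was 0.448, where counting error alone gives 0.042.

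The ratio also moved with properties of the genes. In the shortest class of 5 by length the median log2 ratio was 0.22, and in the longest it was -0.07. Over 5 classes of GC content it went from 0.02 to 0.10. With the medians of length and GC classes removed, the oligodendrocyte median was -2.91 and that of the neuronal cytoskeleton list 0.48 in place of 0.63. The part of RNA quality or library preparation in these trends was not tested.

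**Figure D3:**
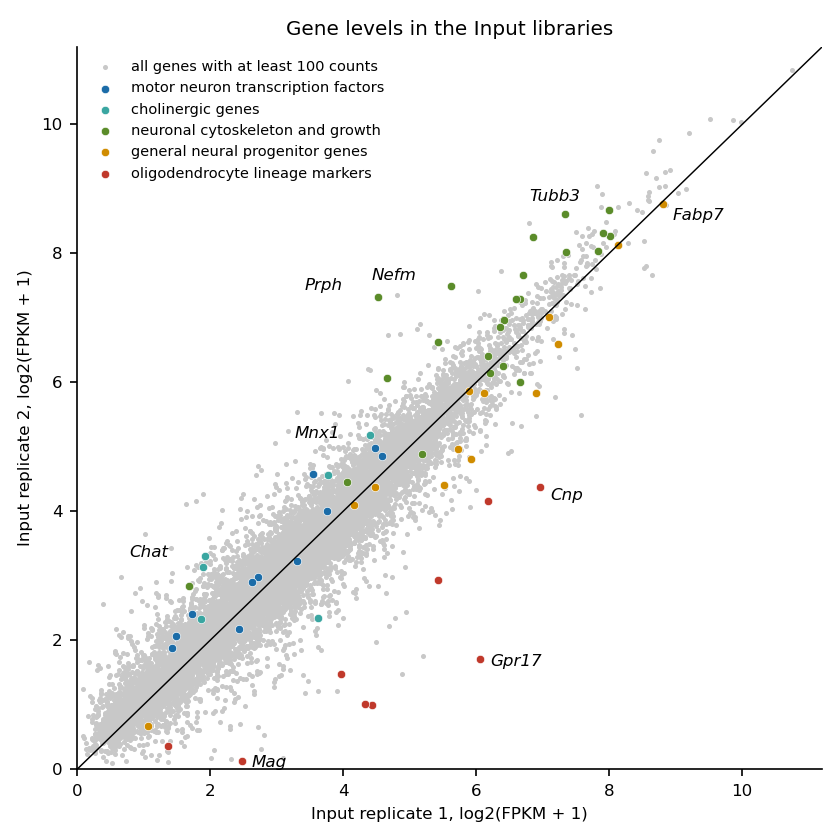
log2(FPKM + 1) of each gene with at least 100 counts in replicate 2 against replicate 1, with 5 gene lists in colour and the line of equal levels. Oligodendrocyte lineage genes (red) lie below the line, Prph, Nefm and Tubb3 above it, and Fabp7 on it at 447 and 433 FPKM.

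Genes of the neuronal cytoskeleton and growth list were mostly higher in replicate 2. Of its 23 members 19 were higher there and 7 were over 2-fold higher, where 4.06% of all genes were, with a median log2 ratio of 0.63 against 0.06. The summed level was 2398 FPKM in replicate 1 and 3846 in replicate 2. Prph, the peripherin filament of motor and sensory neurons, moved most, from 21.9 to 160, or 7.29-fold (95% exact interval 6.83 to 7.78). Nefm went from 48.4 to 178, Nefl from 115 to 303 and Stmn2 from 42.1 to 97.6. Ncam1, Map2, Map1a and Rtn1 were lower instead, with Ncam1 at 100 and 63.3.

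Of 12 motor neuron factors 10, and of 6 cholinergic genes 5, were higher in replicate 2. The median log2 ratio over all genes also leaned that way, at 0.06. That of the 11 motor neuron factors with at least 100 counts was 0.32, or 0.20 with TMM scaling. Isl1 was 2.15-fold higher in replicate 2 (95% exact interval 1.99 to 2.32), Chat 2.89-fold (2.53 to 3.3) and Slc5a7 3.21-fold (2.86 to 3.62), while Mnx1 was 1.45-fold higher (1.34 to 1.57). Of the 11 motor neuron factors with at least 100 counts, 1 was over 2-fold higher, Isl1, where 4.06% of all genes were. With TMM or median of ratios scaling none of the 11 was. Of the 6 cholinergic genes 2 were over 2-fold higher and Slc44a1 over 2-fold lower, where 4.06% and 2.76% of all genes were. Their median log2 ratio was 0.82, against 0.06 over all genes. Synaptic genes divided. Presynaptic genes had a median of 0.35 and postsynaptic genes one of 0.07, which is near that of all genes. Camk2a went from 8.04 to 3.37 FPKM while Camk2b went from 7.07 to 14.1. Of the 6 neuropeptide genes with at least 100 counts, 4 were over 2-fold higher, or 2 with TMM scaling, where 4.06% of all genes were, and Pdyn was over 2-fold lower. Those higher included Npy at 1.65 and 9.82 and Calca, of motor neurons and sensory neurons, at 2.99 and 8.34.

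**Figure D4:**
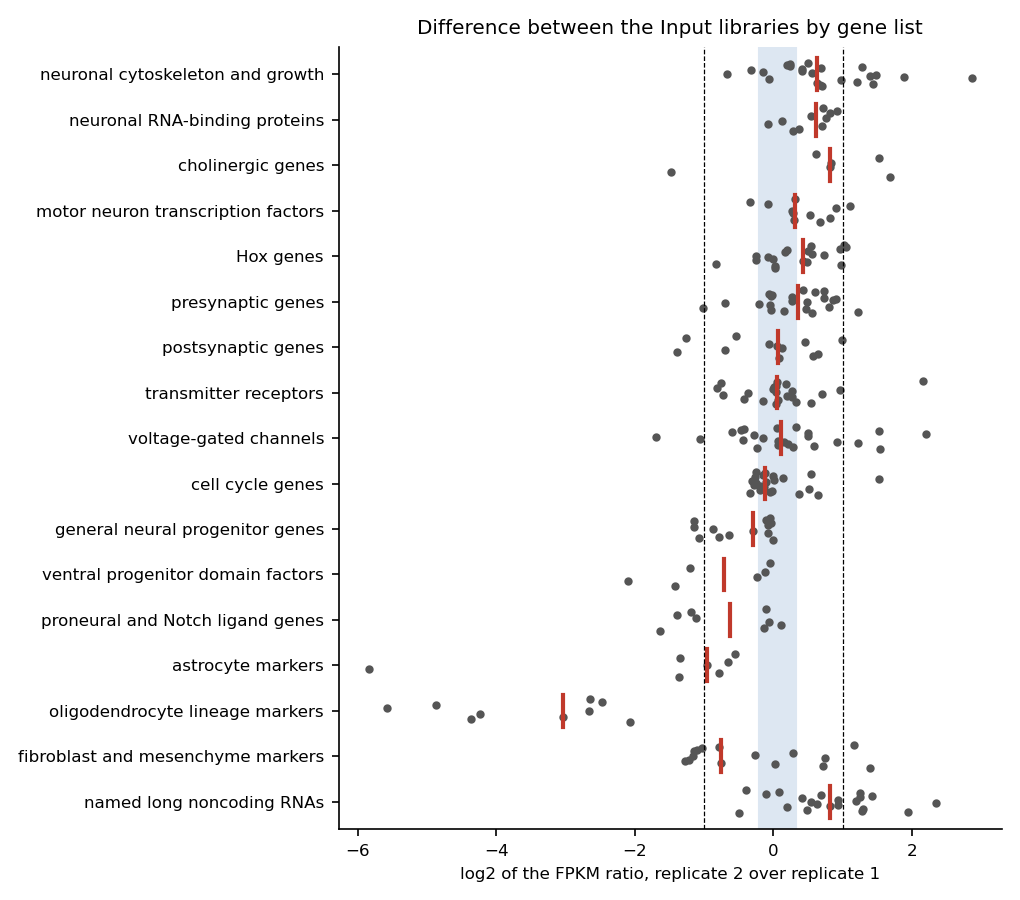
log2 ratio of FPKM, replicate 2 over replicate 1, for members of 17 gene lists with at least 100 counts (points) and their median (red bar). The blue band holds the middle 50% of all 12970 genes and the dashed lines are 2-fold. Oligodendrocyte genes have the lowest median at -3.04, and cell cycle genes centre near 0.

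Progenitor genes leaned the other way. Of 13 general progenitor genes 12 were lower in replicate 2, with a median log2 ratio of -0.29 against 0.06 over all genes. The 3 over 2-fold lower, where 2.76% of all genes were, were Notch1 at 59.8 and 27.1 FPKM, Hes5, its target, at 44.8 and 20.2, and Sox9. Of 8 proneural and Notch ligand genes with at least 100 counts 4 were over 2-fold lower. The Notch ligands Dll1 at 36.5 and 16, Dll3 at 24.1 and 9.18 and Jag1 at 17.1 and 7.91 were among them, and the other was the proneural gene Neurog3, at 5.63 and 1.81. The proneural factors Neurog2 and Neurod1 stayed within 1.5-fold. Fabp7, Vim, Nes and Msi1 also stayed within 1.5-fold, and the cell cycle list had a median of -0.13. Of the 6 ventral progenitor domain factors with at least 100 counts, Olig1, Olig2 and Nkx2-2 were over 2-fold lower, with a median of -0.72.

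Signals that pattern the cord also differed. Ptch1, the hedgehog receptor and target, was at 53 FPKM in replicate 1 and 22.4 in replicate 2, and Smo, the signal transducer, at 23.8 and 16.1. Gli1, another target, was at 1.4 and 1.31. For retinoic acid, Crabp2, a binding protein induced by it, was at 2.7 and 18.3, Rarb at 5.45 and 9.65 and Dhrs3 at 2.84 and 8.31. Cyp26a1, which degrades it, was at 0.041 and 0.0492. Of the 10 retinoic acid genes with at least 100 counts 4 were over 2-fold higher in replicate 2, or 3 with TMM or median of ratios scaling, where 4.06% of all genes were, and none was over 2-fold lower.

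Ranked by ratio among genes with at least 100 counts, the 10 lowest in replicate 2 relative to replicate 1 included S100b, Mag, Plxnb3, Gpr17, Plcg2, Fa2h, Enpp6, Myrf and Bcan. S100b, a calcium-binding protein of astrocytes and oligodendrocytes, went from 275 counts to 4. Fa2h makes myelin lipids and Enpp6 marks new oligodendrocytes. The 10 furthest higher were Fst, Bcl3, Grp, Stac, Lix1, Anxa1, Npas4, Rtl3, Fgd5 and Corin. Stac went from 0.584 to 6.86 FPKM and Lix1 from 1.02 to 11.6. Npas4, a gene switched on by neuronal activity, went from 15 counts to 102, and the immediate early gene Fos from 5.75 to 14.4 FPKM. The stress genes Atf4 and Hspa1a were at 46.2 and 62.4 and at 0.561 and 0.674.

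The abundance ranking was headed by housekeeping and cytoskeletal genes. By mean FPKM the highest nuclear coding genes were Eef1a1, of translation elongation, at 1014 in replicate 1 and 1055 in replicate 2, and Actb at 926 and 1071. Tuba1a, Eef2, Marcksl1, Nnat, Ftl1, Actg1, Ckb, Tubb5, Fabp7, Ywhae, Hsp90ab1, Tubb2b and Rplp1 completed the first 15. Marcksl1, a membrane-actin linker of developing neurons, was at 455 and 613 and Nnat, an imprinted gene of newborn neurons, at 418 and 577. Progenitor and neuronal products thus stood side by side among the most abundant mRNAs.

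Counts, which also grow with gene length, ranked otherwise. Map1b led replicate 1 with 0.379% of the counts and Malat1 led replicate 2 with 0.538%. The 10 genes with most counts were shared in 7 cases, and Igfbp5, Ntn1 and Scd2 belonged to the first 10 of replicate 1, against Dpysl3, Sox11 and Meg3 in replicate 2. The 100 first genes took 11.03% and 11.4% of the counts, 72 of them shared. The counts were therefore spread over many genes. Genes at 10 to 100 FPKM numbered 5250 and held 67.4% and 66% of all counts, and 253 genes were at 100 to 1000.

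Mitochondrially encoded genes took 0.480% of the counts in replicate 1 and 0.682% in replicate 2 and were uneven. mt-Co1, of complex IV, was the highest gene of all at 1711 and 1831 FPKM, and mt-Cytb followed at 588 and 936. Their neighbours mt-Co2 at 5.94 and 9.34, mt-Atp6 at 5.72 and 8.8 and mt-Co3 at 8.34 and 7.59 were far below it. The cause was not tested. Ribosomal protein genes took 1.49% and 1.84% of the counts.

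Genes other than protein-coding ones took 1.85% of the counts in replicate 1 and 2.55% in replicate 2, a mean of 2.20 ± 0.496 (SD, n = 2). By summed FPKM, which weighs short genes more, the shares were 3.48% and 4.41%. Long noncoding RNAs were the largest part, at 1.48% and 2.09% of the counts, and 358 of 9914 were detected. Pseudogenes took 0.197% and 0.222%, loci of the class TEC, which await experimental evidence, 0.132% and 0.169%, and small RNA classes 0.0374% and 0.0668%. Every one of these shares was higher in replicate 2. Shares of pseudogenes are uncertain, since the labels do not state the treatment of reads that match a parent gene equally well.

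**Figure D5:**
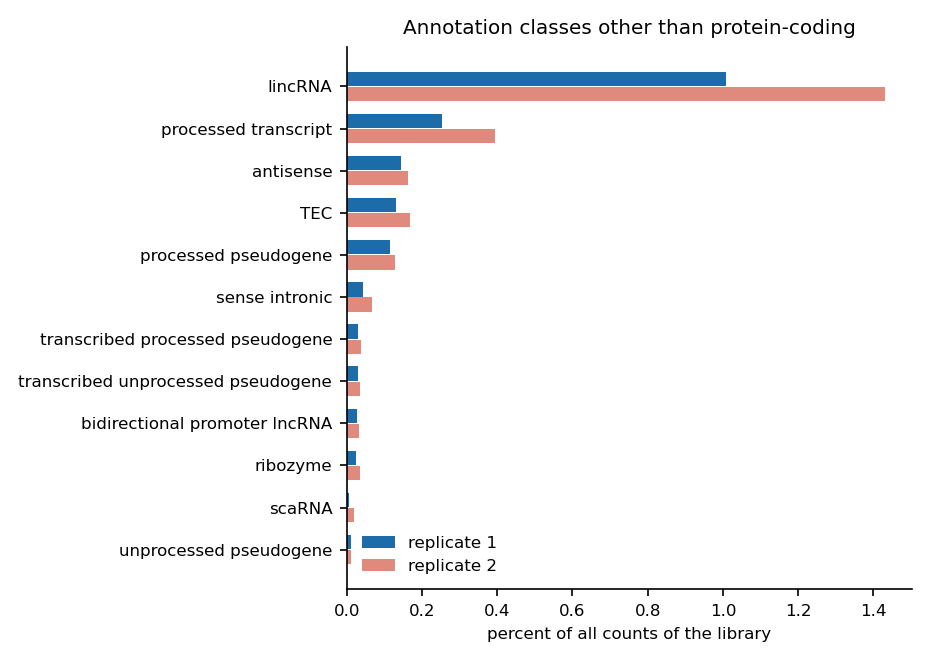
Percent of all counts in annotation classes other than protein-coding, with 1 bar for each Input library. The lincRNA class is the largest, at 1.01% in replicate 1 and 1.43% in replicate 2, and most classes are higher in replicate 2.

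A few long noncoding RNAs carried the class. Malat1, a nuclear speckle RNA, was at 404 FPKM in replicate 1 and 771 in replicate 2, and H19, an imprinted RNA, at 376 and 608. Gm26917, at 524 and 487, and Gm42418, at 139 and 232, lie 616 bases apart on chromosome 17 in a region akin to ribosomal RNA, so that their values are uncertain. Meg3, an imprinted nuclear RNA of neurons, was at 40.4 and 92.6, and Rian, from the same imprinted region, at 18 and 44.1. Miat, a neuronal RNA, was at 32.3 and 47.3, Rmst, of neural differentiation, at 4.88 and 6.82, and Sox2ot, which spans Sox2, at 5.88 and 4.18. Neat1, the scaffold of paraspeckles, was at 0.182 and 0.282, far below Malat1, which is its neighbour in the genome. Of 25 named long noncoding RNAs, 19 were detected and 21 had at least 100 counts. Of these 21, 8 were over 2-fold higher in replicate 2 and none was over 2-fold lower, where 4.06% of all genes and 48 of 410 long noncoding RNAs were over 2-fold higher.

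Small structured RNAs were unequal. Rpph1, the RNA of RNase P, was at 728 FPKM in replicate 1 and 1078 in replicate 2, Rny1 at 58.7 and 69.2, and Rmrp at 22.3 and 20.8. Rn7sk, the RNA that holds back transcription elongation and is abundant in most cells, was at 0.613 and 0.442, or 5 and 3 counts, and Rn7s1 and Rn7s2, of the signal recognition particle, had at most 0.325. The labels do not state how reads that match repeated copies were treated, so these values cannot be read as low expression. Cajal body RNAs differed between the libraries, with Scarna2 at 82 and 211 and Scarna13 at 27.8 and 106. The 20 small RNA genes with at least 100 counts had a median log2 ratio of 0.95.

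Hosts of 2 neural microRNAs showed opposite directions. Their mature sequences (RefSeq, GRCm38.p6) are shown with the seed, bases 2 to 8, in capitals, since miR-9 comes from 3 loci with 1 mature sequence and miR-218 from 2 loci.
miR-9-5p: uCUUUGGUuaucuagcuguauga
miR-218-5p: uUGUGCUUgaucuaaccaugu
The seeds differ, and the loci give the host genes, found by overlap of coordinates. miR-9, of neural progenitors and neurons, lies in Gm3764 on chromosome 3, in C130071C03Rik on chromosome 13 and in Mir9-3hg on chromosome 7, all long noncoding RNAs on the same strand. Gm3764 was at 18.6 FPKM in replicate 1 and 9.16 in replicate 2, C130071C03Rik at 27.9 and 18.1 and Mir9-3hg at 19.3 and 10.2. All 3 hosts were lower in replicate 2, with log2 ratios of -1.02, -0.62 and -0.92.

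miR-218, which is enriched in motor neurons, lies in the axon guidance genes Slit2 on chromosome 5 and Slit3 on chromosome 11. Slit2 was at 21.7 FPKM in replicate 1 and 28.6 in replicate 2 and Slit3 at 30.8 and 44.8, so both were higher in replicate 2. The hosts Mir124-2hg at 8.2 and 15.2 and Mir124a-1hg at 3.93 and 10 were also higher there. A host's level is not that of the mature microRNA, and the annotated hairpins of miR-9 and miR-218 had 0 counts in both libraries.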

How the data were processed

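RNA-seq counts per gene and FPKM values were deposited by the authors for 8 libraries, of which the 2 Input libraries were read. Per the submitters' processing notes the tools were cutadapt 3.2, Bowtie2 2.4.2, Picard and HTSeq 0.13.5 on GRCm38; the annotation and strand setting are not stated there. The deposited FPKM values equalled the counts scaled to exonic length and library total. Symbols, classes and coordinates came from GENCODE M21, which held 55230 of 55471 identifiers. Norad and Oip5os1 were read under their M21 names 2900097C17Rik and 1700020I14Rik, and for Ddit3, Dlx6os1 and Rmrp, which have several identifiers, the one with most counts was used.

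Depth was 24628435 and 20515501 counts. With 1 group of 2 libraries no test was made: levels are given per library, and ratios carry a 95% exact binomial interval for counting error. Replicates were labelled as independent experiments, but whether they vary as separate cultures do cannot be read from 2 libraries. Ratios needed 100 counts summed over the libraries, and a fold of 2 was used as the limit. The call past the fold and the interval were tested on simulated counts. Named genes were all members of 43 lists (555 genes), the 15 highest nuclear coding genes, the 10 with most counts per library, the first 5 of each noncoding class and the 10 furthest apart in each direction. Members and lists were chosen with earlier results of these data known. Alternatives were other thresholds, scalings (TMM by edgeR 4.0.16 and median of ratios), gene sets, leaving out either library, and removal of length and GC classes. Python 3.11.15, scipy 1.17.1 and R 4.3.3 were used. Values of some genes are not reported here.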

Additional observations from a re-analysis of the deposited data

How the results depend on the processing

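With 5 FPKM as the detection level 7890 genes were detected. The share of genes other than protein-coding ones was 3.94% by summed FPKM, and 1.60% of the counts without Malat1, Gm26917 and Gm42418, an alternative chosen after seeing the data. The 100 first coding genes took 10.9% of the coding counts. The correlation was 0.944 with a pseudocount of 0.1, 0.989 without a filter, 0.954 for coding genes and 0.955 as Spearman's rank correlation. The number of genes apart was 2629 at 1.5-fold, 129 at 4-fold, 1747 with at least 20 counts (71.8% of them higher in replicate 2) and 337 with at least 1000 counts (43% higher). It was 873 with TMM scaling, 889 with median of ratios scaling and, chosen after seeing the data, 824 without length and GC trends. With either library left out, 12307 to 12619 genes were detected, 361 to 365 of the listed genes, the share of other classes was 1.85% to 2.55%, and the first 100 genes took 11.03% to 11.4%. Of 43 lists, the detected number moved by over 1.5 times in 8 at 0.5 FPKM and in 20 at 5 FPKM. Without replicate 1 it went to 4 pluripotency and 2 epithelial genes, and without replicate 2 to 2 glutamatergic genes and 1 endothelial gene. The correlation and the number of genes apart need both libraries. No paired analysis was possible because there was 1 group. Genes with few counts, such as Hoxc8, are known least precisely.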

Other observations

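Imprinted genes, a list of 29, were chosen after their values were seen, so their levels and shares are no independent evidence. Of the 29, 25 were detected, with a summed level of 1710 FPKM in replicate 1 and 2350 in replicate 2. H19, Nnat, Peg3, Snrpn, Mest and Peg10 were each above 100 FPKM in both libraries. Peg3, a zinc finger protein, was at 139 and 137, and Snrpn, a splicing protein of neurons, at 109 and 166. Igf2, the neighbour of H19, was at 2.89 and 7.15. Of the 28 with at least 100 counts, 5 were over 2-fold higher in replicate 2, where 4.06% of all such genes were, and none was over 2-fold lower. They were Meg3, Rian, Mirg, Igf2 and Kcnq1ot1, and Meg3, Rian and Mirg come from 1 imprinted region of chromosome 12.

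Another 12 genes of oligodendrocytes, also picked after their values were seen and so no independent evidence, were all lower in replicate 2. Sox8, a relative of Sox10, was at 58.8 and 15.7 FPKM, Bcas1, of new oligodendrocytes, at 35.7 and 2.38, Cldn11, of myelin junctions, at 26.3 and 4.07, and Tnr, a matrix protein, at 24.8 and 3.68. Neuronal genes with large values in replicate 2, chosen in the same way, included Sncg at 24.4 and 105, Cartpt, a neuropeptide, at 7.98 and 37, and Arhgap36 at 8.87 and 45.4. Genes of the Y chromosome were expressed, Ddx3y at 5.63 and 6.11 and Eif2s3y at 3.27 and 7.11, and Xist had 1 count in each library.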
